A study of Mus musculus with 18 samples.

Results

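The ATR-CHK1 replication checkpoint is described here through 10 genes, *Atr*, *Atrip*, *Chek1*, *Clspn*, *Timeless*, *Tipin*, *Topbp1*, *Rad9a*, *Hus1* and *Rad17*, which were chosen by name and were 10 of the 51912 rows of a table of expected counts. RNA-seq was carried out on primary mouse embryonic fibroblasts (MEFs) of the C57BL/6 background at passage 1, grown in 15% FBS and 5% oxygen. The 6 genotypes combined *Pole4*+/+ or *Pole4*-/- with *Trp53*+/+, *Trp53*+/- or *Trp53*-/-, each with 3 libraries, from embryos of crosses between mice heterozygous for both constitutive alleles. POLE4 is an accessory subunit of the leading-strand polymerase Polε, and TRP53 (p53) is the tumor suppressor that activates the CDK inhibitor gene *Cdkn1a*. The comparisons address how the loss of *Trp53*, of *Pole4* and of both together alters the transcripts of this pathway. The members and the gene lists set beside them were chosen with earlier results of these data known, so their counts are descriptions.

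When a replication fork stalls, single-stranded DNA coated with RPA recruits the kinase ATR through its partner ATRIP. The RAD17 clamp loader places the RAD9A-HUS1-RAD1 ring beside it, TOPBP1 then switches on ATR, and the mediators CLSPN, TIMELESS and TIPIN, which travel with the fork, bring the effector kinase CHEK1 (CHK1) to be phosphorylated. CHEK1 in turn restrains CDC25 phosphatases, cyclin-dependent kinases and the firing of further origins. The pathway acts mainly by phosphorylation, which RNA-seq does not measure, and several of its genes are known to be transcribed in a cell cycle-dependent manner through E2F factors. In these bulk cultures, more cells in S phase and more RNA per cell could not be told apart.

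Library totals ran from 9535971 to 35319918 counts, and ribosomal RNA genes took from 0.968% to 42.5% of them. The labels were checked against the targeted genes. *Trp53* was at 86.6 to 96.1 CPM (counts scaled to the size of the library, with TMM factors) in *Pole4*+/+ *Trp53*+/+ libraries and at 8.65 to 12 CPM in *Pole4*+/+ *Trp53*-/- libraries, and *Cdkn1a* at 232 to 251 CPM and 5.66 to 12 CPM. In *Pole4*-/- cells *Trp53* was at 64.2 to 72.7 CPM with both alleles and at 10 to 12.1 CPM with none, and *Cdkn1a* at 342 to 363 CPM and 5.17 to 8.80 CPM. *Pole4* was at 9.26 to 12 CPM in the 9 *Pole4*-/- libraries and at 14.2 to 26.4 CPM in the 9 *Pole4*+/+ libraries, so that reads still fell on the gene in the knockouts. A list of 10 fibroblast markers summed to between 13700 and 31000 CPM in every library, and 6 lists for macrophages, endothelium, epithelium, skeletal muscle, neurons and erythroid cells to at most 132 CPM. *Xist* and 4 Y-linked genes marked 7 libraries as male, namely each *Pole4*+/+ *Trp53*+/- library, 2 of *Pole4*-/- *Trp53*+/+ and 1 each of *Pole4*-/- *Trp53*+/- and *Pole4*-/- *Trp53*-/-. The labels do not say which libraries came from separate embryos, so p-values measure the spread between these libraries.

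Of the members, 5 lie on chromosome 9 (*Atr*, *Atrip*, *Chek1*, *Tipin* and *Topbp1*) and the others on 5 further chromosomes. The windows printed are those of the members that hold E2F letters, *Clspn* and *Topbp1*, and that of *Rad17*, the member with the narrowest response to *Trp53* loss in *Pole4*-/- cells. The RefSeq promoter windows (GRCm38.p6, 250 bases before to 50 after the start) of *Clspn* (chr4:126556730-126557029, plus strand), *Topbp1* (chr9:103305077-103305376, plus strand) and *Rad17* (chr13:100651012-100651311, minus strand) are printed 5′ to 3′ on the strand of the gene. Capitals mark letters found on either strand of an E2F motif (TTTCCCGC or TTTGGCGC or TTTCGCGC or TTTGCCGC), a cell cycle homology region (CHR, TTTGAA or TTCGAA) or a CCAAT box.
Clspn: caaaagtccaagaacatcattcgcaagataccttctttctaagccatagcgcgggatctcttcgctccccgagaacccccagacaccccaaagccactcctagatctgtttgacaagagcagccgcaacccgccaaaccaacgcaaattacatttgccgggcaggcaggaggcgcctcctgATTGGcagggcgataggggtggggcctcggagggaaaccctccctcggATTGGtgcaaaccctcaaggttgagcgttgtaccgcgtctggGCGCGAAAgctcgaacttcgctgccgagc
Topbp1: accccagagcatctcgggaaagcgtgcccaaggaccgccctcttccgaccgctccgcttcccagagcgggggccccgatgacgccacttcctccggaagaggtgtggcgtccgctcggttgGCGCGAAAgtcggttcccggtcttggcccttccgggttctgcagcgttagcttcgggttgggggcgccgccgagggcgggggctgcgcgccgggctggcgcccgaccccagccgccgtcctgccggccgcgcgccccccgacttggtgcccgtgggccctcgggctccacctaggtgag
Rad17: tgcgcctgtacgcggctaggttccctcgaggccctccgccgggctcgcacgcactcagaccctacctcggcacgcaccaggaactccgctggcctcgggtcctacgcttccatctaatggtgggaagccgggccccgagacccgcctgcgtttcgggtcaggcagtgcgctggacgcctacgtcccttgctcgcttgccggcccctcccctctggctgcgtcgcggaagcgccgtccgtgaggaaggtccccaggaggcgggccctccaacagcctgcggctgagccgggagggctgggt
The E2F letters in *Clspn* began at position 22 from the start and those in *Topbp1* at position -129, both on the minus strand, and the other capitals in *Clspn* are CCAAT boxes on the minus strand. Windows were found for 8 of the 10 members. E2F letters stood in 2 of them (*Clspn* and *Topbp1*) and in 2.26% of all 32851 promoter windows. CHR letters stood in the windows of *Atr* and *Hus1*, against 19.23% of all windows, and CCAAT in those of *Atrip* and *Clspn*, against 37.41%. None of these letters stood in full in the windows of *Chek1*, *Timeless* or *Rad17*, of which *Chek1* and *Timeless* changed more than *Topbp1* did. The last bases of the *Chek1* window match the E2F motif TTTCCCGC on the opposite strand but for its first letter. That letter would lie past the end of the window, which was not searched, so an E2F motif there is left undecided for *Chek1*. The windows of *Timeless* and *Chek1* lie wholly inside the annotated genes, and begin 5751 and 157 bases past their first annotated base, so the stretches before those first bases were not searched. Letters in a window are no evidence of binding, and their absence says only that they are not in these 300 bases.

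All 10 members were transcribed in every library and passed the filter on low counts. Per kilobase of transcript, the mean level over the 18 libraries was highest for *Topbp1*, at 22.8 CPM per kb, and *Tipin*, at 14.7 CPM per kb. *Rad17* at 8.36, *Rad9a* at 7.79, *Clspn* at 6.39 and *Atr* at 4.97 CPM per kb came next, and *Chek1*, *Hus1*, *Timeless* and *Atrip* lay between 3.11 and 3.65 CPM per kb. The ratio of the highest to the lowest library was 5.38 for *Clspn* and 1.36 for *Rad17*, the widest and narrowest of the 10. Counts behind single values ran from 31 for *Atrip*, in the third *Pole4*-/- *Trp53*+/+ library, to 4430 for *Topbp1*.

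**Figure D1:**
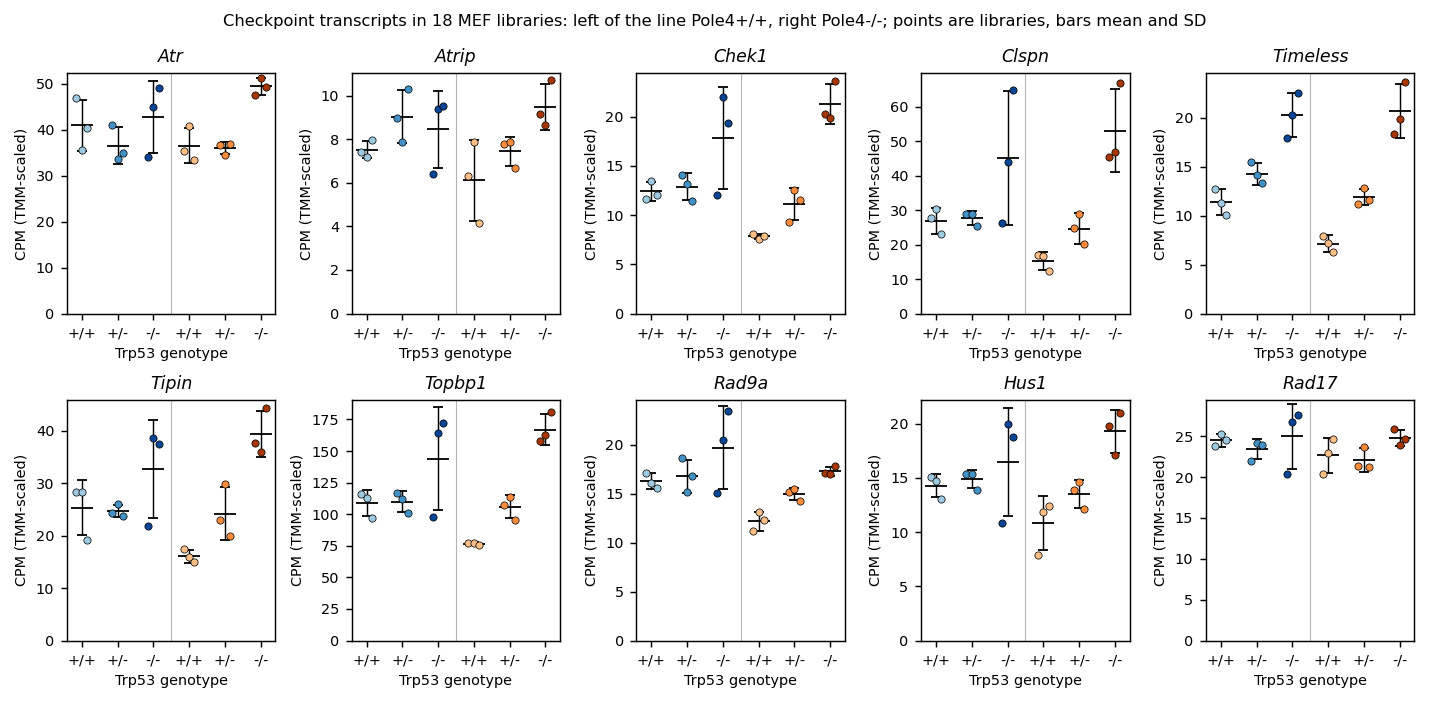
Level of each member, in TMM-scaled CPM, in the 3 libraries of each genotype, with *Pole4*+/+ on the left and *Pole4*-/- on the right of each panel and the *Trp53* genotype on the x axis. Points are libraries and bars are the mean with the SD. In *Pole4*-/- cells the *Trp53*-/- libraries lay above the *Trp53*+/+ libraries for every gene but *Rad17*, and 1 of the 3 *Pole4*+/+ *Trp53*-/- libraries lay low in most panels.

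Loss of *Trp53* was compared first, within each *Pole4* genotype. In *Pole4*-/- cells, 9 of the 10 members rose in *Trp53*-/- against *Trp53*+/+ libraries (edgeR quasi-likelihood test, adjusted p under 0.05 over 15710 genes), while 42.6% of all genes tested were called there in either direction. The 9 members did not overlap between the groups, which held for 57.0% of all genes. Their log2 fold changes ran from 0.44 to 1.78, and the median over the 10 members was 0.99, against -0.02 over all genes. The mediators, the effector kinase and *Topbp1* showed the widest changes, and *Rad17*, *Atr*, *Rad9a* and *Atrip* the narrowest. Between the same groups the summed fibroblast markers lay between 24900 and 31000 CPM with *Trp53* and between 13700 and 16500 CPM without it, and 6 skeletal muscle markers between 45.2 and 67.4 CPM and between 19.3 and 29.2 CPM. Neuron markers lay between 65.1 and 81.5 CPM with *Trp53* and between 111 and 132 CPM without it, and epithelium markers between 2.06 and 2.67 CPM and between 4.4 and 20.2 CPM. The ranges of the other 3 lists overlapped. The part of the markers in the result was not tested. In *Pole4*+/+ cells only *Timeless* was called, against 4.6% of all genes, and 1 member did not overlap, against 16.5% of all genes. All 10 members had positive log2 fold changes there, with a median of 0.31 against 0.03 over all genes. The skeletal muscle markers lay between 40.5 and 71.1 CPM with *Trp53* and between 14 and 25 CPM without it in *Pole4*+/+ cells, which was not tested as a part of the result either, and the other 6 lists overlapped.

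**Figure D2:**
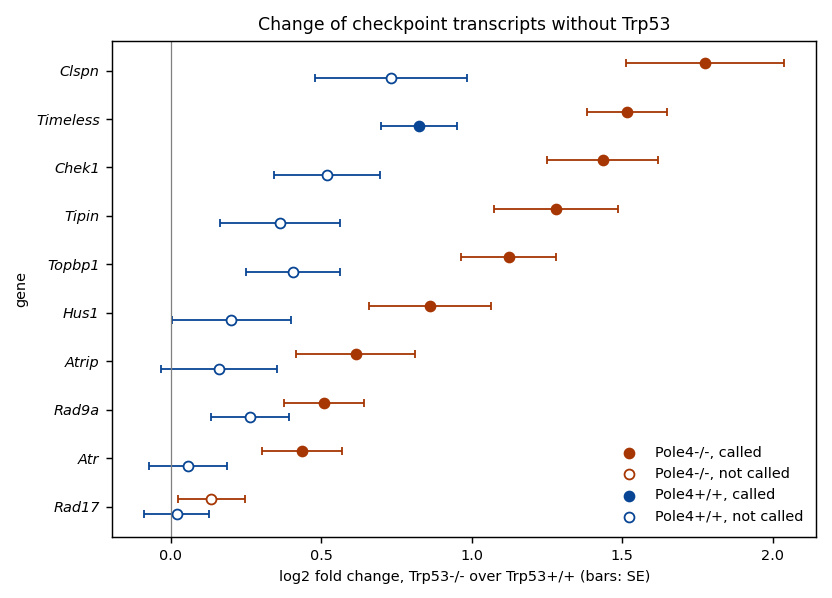
Log2 fold change of *Trp53*-/- over *Trp53*+/+ libraries for each member, with its standard error, in *Pole4*-/- (orange) and *Pole4*+/+ (blue) MEFs. Filled points are called at an adjusted p under 0.05. *Clspn*, at 1.78, lay farthest from 0 and *Rad17*, at 0.14, nearest in *Pole4*-/- cells, and each orange point lay to the right of the blue point of the same gene.

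The mediators link ATR to CHEK1 at the fork. *Clspn* (claspin, ENSMUSG00000042489, chr4:126556935-126593903, plus strand, GRCm38), the adaptor that holds CHEK1 for phosphorylation, was at 16.9, 16.7 and 12.4 CPM in *Pole4*-/- *Trp53*+/+ libraries and at 45.5, 46.8 and 67.0 CPM in *Pole4*-/- *Trp53*-/- libraries. In *Pole4*+/+ cells it was at 27.7, 30.2 and 23.0 CPM with *Trp53* and at 26.2, 44.0 and 64.9 CPM without it. The groups were apart in *Pole4*-/- cells and overlapped in *Pole4*+/+ cells, where the first *Trp53*-/- library lay within the wild-type range. The log2 fold change was 1.78 ± 0.26 (SE, n = 3 against 3, edgeR adjusted p = 0.000125) in *Pole4*-/- cells and 0.73 ± 0.25 (edgeR adjusted p = 0.111) in *Pole4*+/+ cells.

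*Timeless* (ENSMUSG00000039994, chr10:128232065-128252941, plus strand), which with TIPIN forms the fork protection complex, was the one member called in both *Pole4* genotypes. It was at 7.98, 7.18 and 6.29 CPM in *Pole4*-/- *Trp53*+/+ libraries and at 18.4, 19.9 and 23.7 CPM in *Pole4*-/- *Trp53*-/- libraries. In *Pole4*+/+ cells it was at 12.7, 11.3 and 10.1 CPM with *Trp53* and at 18, 20.3 and 22.5 CPM without it. Every *Trp53*-/- library lay above every *Trp53*+/+ library of either *Pole4* genotype. The log2 fold change was 1.52 ± 0.13 (edgeR adjusted p = 1.92e-06) in *Pole4*-/- cells and 0.83 ± 0.13 (edgeR adjusted p = 0.00141) in *Pole4*+/+ cells. The second of these calls was lost when only the 2 genotypes compared entered the fit, at a log2 fold change of 0.83 (edgeR adjusted p = 0.0743).

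*Tipin* (ENSMUSG00000032397, chr9:64281581-64305424, plus strand), the partner of TIMELESS, was at 17.5, 15.9 and 15.0 CPM in *Pole4*-/- *Trp53*+/+ libraries and at 37.8, 36.0 and 44.4 CPM in *Pole4*-/- *Trp53*-/- libraries. In *Pole4*+/+ cells it was at 28.4, 28.3 and 19.2 CPM with *Trp53* and at 21.8, 38.6 and 37.6 CPM without it. The *Pole4*-/- groups were apart by more than their own ranges, and the *Pole4*+/+ groups overlapped. Its log2 fold change was 1.28 ± 0.21 (edgeR adjusted p = 0.000219) and 0.36 ± 0.20 (edgeR adjusted p = 0.357) in the respective genotypes. The log2 ratio of *Timeless* to *Tipin* CPM within a library, which does not depend on the scaling, was higher without *Trp53* by 0.25 in *Pole4*-/- and by 0.49 in *Pole4*+/+ cells, with no overlap in either (exact permutation p = 0.1, two-sided, the smallest that 3 against 3 libraries allow, and 0.3 when adjusted over the 63 comparisons of ratios made). Without the first *Pole4*+/+ *Trp53*-/- library the second difference was 0.30, and the nearest libraries of its groups lay at -0.925 and -0.93.

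*Chek1* (ENSMUSG00000032113, chr9:36708482-36727065, minus strand) encodes the effector kinase CHK1. It was at 8.05, 7.60 and 7.90 CPM in *Pole4*-/- *Trp53*+/+ libraries, the lowest 3 values of all 18, and at 20.3, 19.9 and 23.6 CPM in *Pole4*-/- *Trp53*-/- libraries. In *Pole4*+/+ cells it was at 11.6, 13.5 and 12 CPM with *Trp53* and at 12, 22.0 and 19.3 CPM without it. The log2 fold change was 1.44 ± 0.18 (edgeR adjusted p = 3.51e-05) in *Pole4*-/- cells and 0.52 ± 0.18 (edgeR adjusted p = 0.104) in *Pole4*+/+ cells.

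*Topbp1* (ENSMUSG00000032555, chr9:103305215-103350428, plus strand), the activator of ATR and a factor in origin firing, was the most abundant member. It was at 77.4, 77.3 and 75.8 CPM in *Pole4*-/- *Trp53*+/+ libraries and at 158, 163 and 181 CPM in *Pole4*-/- *Trp53*-/- libraries. In *Pole4*+/+ cells it was at 116, 113 and 97.2 CPM with *Trp53* and at 97.5, 164 and 172 CPM without it. The first *Pole4*+/+ *Trp53*-/- library lay within the wild-type range and the other two above it. The log2 fold change was 1.12 ± 0.16 (edgeR adjusted p = 7.48e-05) in *Pole4*-/- cells and 0.41 ± 0.16 (edgeR adjusted p = 0.153) in *Pole4*+/+ cells.

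The kinase complex itself moved less. *Atr* (ENSMUSG00000032409, chr9:95857597-95951781, plus strand) was at 35.3, 40.7 and 33.3 CPM in *Pole4*-/- *Trp53*+/+ libraries and at 47.6, 51.3 and 49.3 CPM in *Pole4*-/- *Trp53*-/- libraries, which did not overlap. Its log2 fold change was 0.44 ± 0.13 (edgeR adjusted p = 0.0145) in *Pole4*-/- and 0.06 ± 0.13 (edgeR adjusted p = 0.874, 95% interval -0.22 to 0.33) in *Pole4*+/+ cells. Without the third *Pole4*-/- *Trp53*+/+ library, the one with the highest share of ribosomal RNA, the call in *Pole4*-/- cells was lost (0.38, edgeR adjusted p = 0.059). The log2 ratio of *Chek1* to *Atr* rose from between -2.42 and -2.08 to between -1.36 and -1.06 in these groups, a difference of 0.99 with no overlap (exact permutation p = 0.1), and that of *Clspn* to *Atr* differed by 1.34 with no overlap (exact permutation p = 0.1). In *Pole4*+/+ cells both ratios overlapped between the groups, with differences of 0.43 and 0.60, or of 0.28 without the first *Trp53*+/+ and 0.40 without the third *Trp53*-/- library.

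*Atrip* (ENSMUSG00000025646, chr9:109057933-109074124, minus strand), which tethers ATR to RPA, was at 6.33, 7.85 and 4.15 CPM in *Pole4*-/- *Trp53*+/+ libraries and at 9.16, 8.64 and 10.7 CPM in *Pole4*-/- *Trp53*-/- libraries. Its log2 fold change was 0.61 ± 0.20 (edgeR adjusted p = 0.0206) there and 0.16 ± 0.19 (edgeR adjusted p = 0.728) in *Pole4*+/+ cells. The call was lost without the third *Pole4*-/- *Trp53*+/+ library (0.43, edgeR adjusted p = 0.0847) or the third *Pole4*-/- *Trp53*-/- library (0.53, edgeR adjusted p = 0.0797). In the annotation, *Atrip* shares 1147 bases of exon, 16% of its own, with *Trex1* on the same strand, and its counts held a fraction (any nonzero part after the point, with no tolerance) in 18 of 18 libraries, so the division of reads between them is uncertain. *Trex1* itself was not called in *Pole4*-/- cells, with a log2 fold change of -0.06 ± 0.20 (edgeR adjusted p = 0.859).

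Of the members *Hus1*, *Rad9a* and *Rad17*, which encode parts of the clamp and its loader, *Hus1* (ENSMUSG00000020413, chr11:8993137-9011191, minus strand) moved most in *Pole4*-/- cells. It was at 7.90, 11.9 and 12.4 CPM in *Pole4*-/- *Trp53*+/+ libraries and at 19.8, 17.1 and 21.0 CPM in *Pole4*-/- *Trp53*-/- libraries, a log2 fold change of 0.86 ± 0.20 (edgeR adjusted p = 0.00335), against 0.20 ± 0.20 (edgeR adjusted p = 0.654) in *Pole4*+/+ cells. *Rad9a* (ENSMUSG00000024824, chr19:4195196-4201662, minus strand), another subunit of the ring, was at 11.2, 13.1 and 12.3 CPM and at 17.1, 17 and 17.8 CPM in the same groups, a log2 fold change of 0.51 ± 0.13 (edgeR adjusted p = 0.00631), against 0.26 ± 0.13 (edgeR adjusted p = 0.284) in *Pole4*+/+ cells. Both genes were apart between the *Pole4*-/- groups. With scaling by library totals the call of *Rad9a* was lost (0.48, edgeR adjusted p = 0.0979), as were those of *Atr* (0.40, edgeR adjusted p = 0.183) and *Atrip* (0.55, edgeR adjusted p = 0.167). *Rad9a* shares 225 bases of exon, 9.5% of its own, with *Ppp1ca* on the opposite strand, and the library kit keeps no strand, while the counts of *Rad9a* were whole, by the same rule, in 18 of 18 libraries. *Ppp1ca*, a phosphatase subunit gene expressed at 148 CPM in *Pole4*-/- *Trp53*+/+ libraries, rose as well in *Pole4*-/- *Trp53*-/- libraries (0.45 ± 0.11, edgeR adjusted p = 0.00319).

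*Rad17* (ENSMUSG00000021635, chr13:100617164-100651051, minus strand), whose product loads the ring, was the exception. It was at 20.4, 23.0 and 24.6 CPM in *Pole4*-/- *Trp53*+/+ libraries and at 25.9, 23.9 and 24.6 CPM in *Pole4*-/- *Trp53*-/- libraries, and the groups overlapped. The log2 fold change was 0.14 ± 0.11 (edgeR adjusted p = 0.343), with a 95% interval of -0.10 to 0.37, so that a change of the size seen in *Hus1* lay outside it. In *Pole4*+/+ cells it was 0.02 ± 0.11 (edgeR adjusted p = 0.95). The log2 ratio of *Clspn* to *Rad17* differed by 1.65 in *Pole4*-/- and by 0.64 in *Pole4*+/+ cells between *Trp53*-/- and *Trp53*+/+ libraries, with no overlap in either (exact permutation p = 0.1), and the second was 0.41 without the third *Pole4*+/+ *Trp53*-/- library.

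The first *Pole4*+/+ *Trp53*-/- library was the lowest of its group for all 10 members. Without it, *Clspn* (0.98, edgeR adjusted p = 0.00516), *Timeless*, *Chek1* (0.71, edgeR adjusted p = 0.00224), *Topbp1* (0.60, edgeR adjusted p = 0.00084), *Tipin* (0.56, edgeR adjusted p = 0.0279) and *Rad9a* (0.40, edgeR adjusted p = 0.0127) were called in *Pole4*+/+ cells, 6 members in place of 1, while 16.9% of all genes were called in that fit in place of 4.6%. The mean log2 CPM of 20 S-phase and proliferation genes was 5.68 in this library and 6.49 and 6.69 in the other two, and whether that sets the members' levels was not tested.

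Whether the effect of *Trp53* loss differed between the *Pole4* genotypes was tested with an interaction term. The estimate was positive for all 10 members, with a median of 0.67 against -0.02 over all genes, but no member passed the threshold by edgeR, against 0.331% of all genes. At an unadjusted p under 0.05, 6 members did, where 28.3% of all genes did, and DESeq2 called 5, where it called 12.4% of all genes, and limma voom 4, where it called 7.59%. The differences in log2 fold change were 1.04 ± 0.36 for *Clspn* (edgeR adjusted p = 0.0923), 0.92 ± 0.25 for *Chek1* (edgeR adjusted p = 0.0616), 0.92 ± 0.29 for *Tipin* (edgeR adjusted p = 0.0752), 0.72 ± 0.22 for *Topbp1* (edgeR adjusted p = 0.0742) and 0.69 ± 0.18 for *Timeless* (edgeR adjusted p = 0.058). Without the low first *Pole4*+/+ *Trp53*-/- library they were 0.77, 0.70, 0.70, 0.51 and 0.62, and edgeR called none, with 1.07% of all genes called. Without the third library of that group edgeR called all 5, where 20.1% of all genes were called, and without the second 4, where 12.3% were. Without the third *Pole4*+/+ *Trp53*+/+ library it called 2, where 2.52% of all genes were called. The number of calls thus varied both with single *Pole4*+/+ libraries and with the method.

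The heterozygous genotype asked whether 1 lost *Trp53* allele was enough. In *Pole4*-/- cells, 1 member rose in *Trp53*+/- against *Trp53*+/+ libraries, where 5.12% of all genes were called, and 6 members lay wholly above, where 40.3% of all genes did not overlap. DESeq2 called 2 members, where it called 13.2% of all genes, and limma voom 5, where it called 24.6%. With only the genotypes compared edgeR called 5, against 18.2% of all genes, and with scaling by library totals 6, against 13.8%. *Timeless* was at 11.2, 12.8 and 11.6 CPM in *Pole4*-/- *Trp53*+/- libraries, between the *Trp53*+/+ and *Trp53*-/- libraries without overlapping either, and was called with a log2 fold change of 0.71 ± 0.13 (edgeR adjusted p = 0.0136). The call was lost without the second *Trp53*+/- library (0.66, edgeR adjusted p = 0.0883) and without the second (0.71, edgeR adjusted p = 0.0667) or the third (0.64, edgeR adjusted p = 0.0779) *Trp53*+/+ library, with log2 fold changes close to that of all libraries. *Clspn* (24.7, 29.0 and 20.1 CPM) and *Chek1* (9.31, 12.5 and 11.5 CPM) also lay between the other genotypes with no overlap. Their log2 fold changes of 0.67 ± 0.26 (edgeR adjusted p = 0.124) and 0.49 ± 0.18 (edgeR adjusted p = 0.112) against *Trp53*+/+ were not called. *Tipin* at 0.58 ± 0.20, *Topbp1* at 0.46 ± 0.16 and *Rad9a* at 0.30 ± 0.13 lay between in the same way, with edgeR adjusted p-values of 0.0991, 0.0909 and 0.167. *Atr* and *Rad17*, at -0.02 ± 0.13 and -0.03 ± 0.11, had overlapping libraries, and both turned positive with scaling by library totals. The epithelium markers lay between 2.06 and 2.67 CPM in these *Trp53*+/+ and between 3.9 and 6.47 CPM in these *Trp53*+/- libraries, while the other 6 lists overlapped, and the part of this in the result was not tested.

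In *Trp53*-/- against *Trp53*+/- *Pole4*-/- libraries, which differ by the second allele, 6 members rose, with 12.5% of all genes called. All 10 members lay wholly above, where 37.7% of all genes did not overlap. The comparison shares the *Trp53*+/- libraries with the one before and the *Trp53*-/- libraries with the first. *Clspn* rose by 1.11 ± 0.25 (edgeR adjusted p = 0.0112), *Chek1* by 0.94 ± 0.18 (edgeR adjusted p = 0.00348), *Timeless* by 0.80 ± 0.13 (edgeR adjusted p = 0.00133), *Tipin* by 0.70 ± 0.20 (edgeR adjusted p = 0.0321), *Topbp1* by 0.67 ± 0.16 (edgeR adjusted p = 0.0122) and *Atr* by 0.46 ± 0.13 (edgeR adjusted p = 0.0317) on the log2 scale. *Chek1* and *Timeless* were called in each fit that left out 1 library. *Clspn* (0.96 and 0.91) and *Topbp1* (0.57 and 0.60) lost their calls without the third *Trp53*+/- or the third *Trp53*-/- library, *Tipin* in 5 of the 6 such fits (each but that without the second *Trp53*+/- library) and *Atr* in all 6. Over the 6 fits the log2 fold change of *Tipin* ran from 0.55 to 0.87 and that of *Atr* from 0.43 to 0.48. With scaling by library totals no member was called, against 7.97% of all genes. Between these groups the fibroblast markers lay between 20600 and 26000 CPM in *Trp53*+/- and between 13700 and 16500 CPM in *Trp53*-/- libraries, and the skeletal muscle markers between 46.7 and 78 CPM and between 19.3 and 29.2 CPM. Ribosomal RNA genes took 3.75% to 15.5% of the counts in the *Trp53*+/- libraries and 24.7% to 30.04% in the *Trp53*-/- libraries. Their part was not tested.

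The heterozygotes were compared in *Pole4*+/+ cells as well. All 3 *Pole4*+/+ *Trp53*+/- libraries were male by their transcripts and none of the other *Pole4*+/+ libraries was, so within these groups the allele and sex cannot be told apart. No member was called by edgeR in *Trp53*+/- against *Trp53*+/+ libraries, where 0.904% of all genes were, and 1 member (*Timeless*) had an unadjusted p under 0.05, against 10.2% of all genes. The median log2 fold change of the members was 0.05. *Timeless* was at 15.5, 14.2 and 13.3 CPM in the heterozygotes, wholly above the wild type, with a log2 fold change of 0.33 ± 0.13 (edgeR adjusted p = 0.312). In *Trp53*-/- against *Trp53*+/- libraries no member was called by edgeR either, where 0.579% of all genes were, while 4 members had an unadjusted p under 0.05, where 9.31% of all genes had. DESeq2 called 1 member there, against 1.16% of all genes, and limma voom 5, against 7.29%. The median was 0.30. Without the low first *Trp53*-/- library edgeR called 6 members in this comparison, where 9.41% of all genes were called, namely *Clspn* (0.94), *Chek1* (0.65), *Tipin* (0.60), *Topbp1* (0.58), *Timeless* (0.55) and *Rad9a* (0.35), and *Atrip* turned from -0.10 to 0.045. With *Xist* as a covariate, fitted over all 6 genotypes, no member was called in either comparison, against 0.668% and 0.172% of all genes. Between wild-type and heterozygous libraries the neuron markers lay between 58.2 and 76.5 CPM and between 83.8 and 114 CPM, and the skeletal muscle markers between 40.5 and 71.1 CPM and between 19.4 and 27.7 CPM, and their part was not tested.

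Loss of *Pole4* was compared within each *Trp53* genotype. With *Trp53* intact, all 10 members had negative log2 fold changes in *Pole4*-/- against *Pole4*+/+ libraries, with a median of -0.47 against 0.01 over all genes. By edgeR 1 member, *Timeless*, was called, where 3.98% of all genes were, while 6 had an unadjusted p under 0.05, where 26.1% of all genes had, and DESeq2 called 6, where it called 11.8% of all genes. As many as 7 members lay wholly below, where 41.1% of all genes did not overlap. *Timeless* fell by 0.66 ± 0.13 on the log2 scale (edgeR adjusted p = 0.022). *Clspn* at -0.80 ± 0.26, *Chek1* at -0.65 ± 0.18, *Tipin* at -0.64 ± 0.21, *Topbp1* at -0.50 ± 0.16 and *Rad9a* at -0.42 ± 0.13 had edgeR adjusted p-values of 0.0827, 0.0557, 0.0792, 0.0743 and 0.0773. *Hus1* was at -0.43 ± 0.20 (edgeR adjusted p = 0.193), and *Atr*, *Atrip* and *Rad17* overlapped between the groups. The sexes differ between these groups, and with *Xist* as a covariate *Timeless* was at -0.56 ± 0.15 (edgeR adjusted p = 0.129) and no member was called, against 0.0191% of all genes. Its call was also lost without the second (-0.66, edgeR adjusted p = 0.0926) or the third (-0.59, edgeR adjusted p = 0.0859) *Pole4*-/- *Trp53*+/+ library and without the first (-0.57, edgeR adjusted p = 0.0963) or second (-0.67, edgeR adjusted p = 0.113) wild-type library, with log2 fold changes close to that of all libraries. The fibroblast markers lay between 16300 and 22000 CPM in *Pole4*+/+ and between 24900 and 31000 CPM in *Pole4*-/- libraries with *Trp53* intact, and the epithelium markers between 2.84 and 6.76 CPM and between 2.06 and 2.67 CPM, while the other 5 lists overlapped. The part of these differences in the members' values was not tested.

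In the other *Trp53* genotypes most members were closer together between the *Pole4* groups. *Atrip* was at -0.28 in both *Trp53*+/- and *Trp53*+/+ cells, and *Atr* at 0.21 in *Trp53*-/- against -0.17 in *Trp53*+/+ cells. Whether the *Pole4* effect differs between *Trp53*+/- and *Trp53*+/+ cells was not tested. In *Trp53*+/- cells no member was called by edgeR between *Pole4*-/- and *Pole4*+/+ libraries, where 0.00637% of all genes were, and 1 member, *Timeless*, had an unadjusted p under 0.05, at -0.28 ± 0.13, against 5.51% of all genes. The median of the members was -0.16. Male libraries were 3 of the *Pole4*+/+ and 1 of the *Pole4*-/- group, and the skeletal muscle markers lay between 19.4 and 27.7 CPM and between 46.7 and 78 CPM, whose part was not tested. In *Trp53*-/- cells no member was called by edgeR, again against 0.00637% of all genes, and none had an unadjusted p under 0.05, where 10.4% of all genes had. The median there was 0.21, from -0.18 for *Rad9a* to 0.27 for *Tipin*, with 8 members above 0. Without the low first *Pole4*+/+ *Trp53*-/- library the median was -0.001 and 5 members lay above 0, with *Tipin* at 0.054, *Chek1* at 0.044, *Topbp1* at 0.002, *Clspn* at -0.028 and *Rad9a* at -0.33. With scaling by library totals all 10 lay below 0, with a median of -0.19 against -0.435 over all genes. Ribosomal RNA genes took 1.82% to 13.1% of the counts in the *Pole4*+/+ and 24.7% to 30.04% in the *Pole4*-/- libraries of this comparison, and their part was not tested. The interaction above is also the test of the difference between this *Pole4* effect and that in *Trp53*+/+ cells, and it called no member by edgeR. *Timeless*, at 0.03 ± 0.13 with a 95% interval of -0.23 to 0.30, was at 20.7 CPM in *Pole4*-/- and 20.3 CPM in *Pole4*+/+ cells on average.

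**Figure D3:**
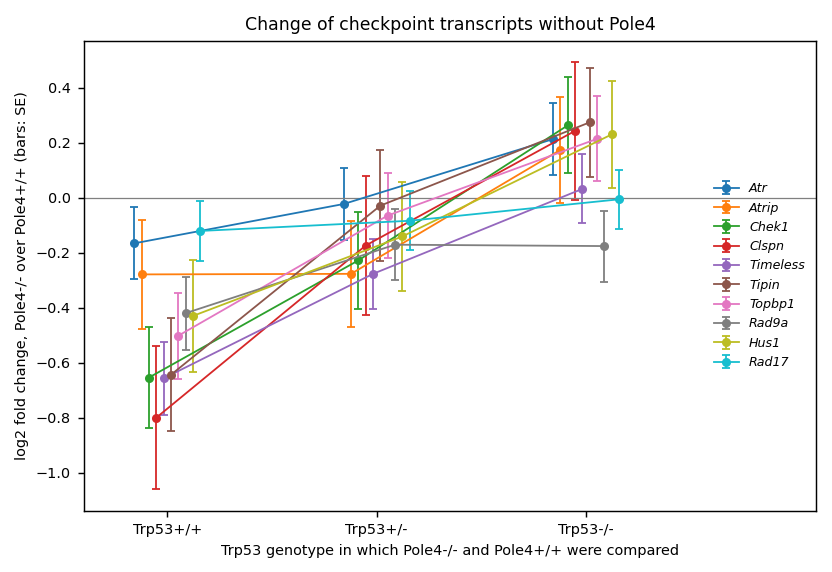
Log2 fold change of *Pole4*-/- over *Pole4*+/+ libraries for each member, with its standard error, in *Trp53*+/+, *Trp53*+/- and *Trp53*-/- MEFs. Lines join the values of a gene. All 10 members lay below 0 in *Trp53*+/+ cells, and 8 lay above 0 in *Trp53*-/- cells, where no member was called and where 5 lay above 0 without the first *Pole4*+/+ *Trp53*-/- library and 0 with scaling by library totals.

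Placed in order over the 6 genotypes, *Pole4*-/- *Trp53*+/+ cells held the lowest mean for 8 members, all but *Atr* and *Rad17*, and for 33.2% of all genes. For *Chek1*, *Clspn*, *Timeless*, *Tipin*, *Topbp1* and *Rad9a* the next genotype up did not overlap them, while for *Atrip* and *Hus1* it did. Over all genes, 13.9% had both their lowest mean there and no overlap with the next genotype. *Pole4*-/- *Trp53*-/- cells held the highest mean for 8 members, all but *Rad9a* and *Rad17*, and for 27.0% of all genes, and overlapped the next lower genotype for each. The genotypes between them overlapped their neighbors for most members. For *Timeless*, the *Pole4*+/+ *Trp53*+/- libraries stood apart from both neighbors in the order, with a mean of 14.3 ± 1.11 CPM (SD, n = 3). For *Rad17*, *Atr*, *Atrip* and *Hus1*, each genotype overlapped the next.

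The other genes of the pathway were taken from a list of 20, of which 19 were tested. In *Pole4*-/- cells 16 rose without *Trp53* and none fell, where 42.6% of all genes were called, with a median log2 fold change of 1.05 against -0.02 over all genes. The widest changes among those called were those of *Rfc5* (1.65 ± 0.18), a subunit of the clamp loader, and of *Cdc25c* (1.64 ± 0.17) and *Pkmyt1* (1.60 ± 0.24), a phosphatase that activates CDK1 and a kinase that inhibits it. The narrowest were those of *Rhno1* (0.59 ± 0.12), which binds the ring and TOPBP1, *Rfc2* (0.84 ± 0.13) and *Rpa3* (0.86 ± 0.20), a subunit of RPA. *Rad1*, the remaining subunit of the ring, was at 0.28 ± 0.14 and was not called (edgeR adjusted p = 0.12). In *Pole4*+/+ cells 3 of the 19 rose, against 4.6% of all genes called, with a median of 0.47. With *Trp53* intact 7 of the 19 fell in *Pole4*-/- cells, against 3.98% of all genes called, with a median of -0.56. The sexes differ between these groups. With *Xist* as a covariate only 3 of 15710 genes were called, so at most 3 of the 7 calls could remain. Without 1 library 0.0493% to 4.93% of all genes were called.

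The parallel ATM-CHK2 branch, which answers double-strand breaks, was measured with 13 genes. In *Pole4*-/- cells 9 rose without *Trp53* and 1 fell, against 42.6% of all genes called, with a median of 0.58. *H2afx* (1.19 ± 0.19), the histone variant phosphorylated at breaks, *Mre11a* (0.99 ± 0.12), a nuclease of the MRN complex, and *Mdc1* (0.90 ± 0.11), a scaffold that binds phosphorylated H2AX, changed most. *Rad50* at 0.43 ± 0.09 and *Rnf168* at 0.45 ± 0.12 rose least, and *Trp53bp1* fell (-0.39 ± 0.13, edgeR adjusted p = 0.0221). *Atm* rose by 0.58 ± 0.08 on the log2 scale (edgeR adjusted p = 5.62e-05), against 0.44 for *Atr*, and *Chek2* was at -0.18 ± 0.15 (edgeR adjusted p = 0.344), against 1.44 for *Chek1*. In *Pole4*+/+ cells 1 of the 13 rose, where 4.6% of all genes were called, and with *Trp53* intact 2 fell in *Pole4*-/- cells, where 3.98% were. With *Xist* as a covariate only 3 of 15710 genes were called for this *Pole4* loss, and without 1 library 0.0493% to 4.93%. Whether the 2 genes kept their calls there was not examined.

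Genes of S phase and proliferation moved with the members. Of 20 such genes, 20 rose without *Trp53* in *Pole4*-/- cells, against 42.6% of all genes called, with a median of 1.63. *Cdc6* (2.03 ± 0.28), *Mcm5* (1.97 ± 0.26) and *Ccna2* (1.89 ± 0.21), which license origins, form the helicase and drive S phase, changed most, and *Ccne1* (0.88 ± 0.23), *Cdk2* (0.90 ± 0.13) and *Tyms* (1.35 ± 0.15) least. In *Pole4*+/+ cells 2 of the 20 rose, where 4.6% of all genes were called, and with *Trp53* intact 12 fell in *Pole4*-/- cells, where 3.98% were. With *Xist* as a covariate only 3 of 15710 genes were called for this *Pole4* loss, so at most 3 of the 12 calls could remain. Without 1 library 0.0493% to 4.93% of all genes were called. The mean log2 CPM of the list was 4.98 ± 0.03 (SD, n = 3) in *Pole4*-/- *Trp53*+/+ and 6.55 ± 0.16 in *Pole4*-/- *Trp53*-/- libraries, and 5.79 ± 0.26 and 6.28 ± 0.54 in the corresponding *Pole4*+/+ libraries. Over the 18 libraries, which share the scaling and the genotypes, the Pearson correlation with this mean was 0.99 for *Topbp1*, 0.98 for *Tipin*, 0.97 for *Clspn*, 0.96 for *Chek1* and 0.93 for *Timeless*. It was 0.895 for *Hus1*, 0.87 for *Rad9a*, 0.72 for *Atrip*, 0.68 for *Atr* and 0.61 for *Rad17*. On deviations from the genotype means it was 0.96 for *Topbp1*, 0.94 for *Tipin*, 0.89 for *Clspn*, 0.81 for *Chek1*, 0.79 for *Rad9a*, 0.78 for *Hus1*, 0.73 for *Rad17*, 0.66 for *Timeless*, 0.47 for *Atr* and 0.40 for *Atrip*. Without the low first *Pole4*+/+ *Trp53*-/- library these within-genotype values were 0.91 for *Topbp1*, 0.89 for *Tipin*, 0.78 for *Clspn* and 0.63 for *Timeless*. They were 0.48 for *Chek1*, 0.47 for *Hus1*, 0.42 for *Rad9a*, 0.31 for *Rad17*, -0.003 for *Atrip* and -0.105 for *Atr*, so for these members they lean on that library. These are descriptions, and how far the share of cycling cells sets the members' levels was not tested. The paper reports flow cytometry of MEFs at a later passage. It states that a larger share of S-phase cells did not account for the higher POLE1 signal without TRP53.

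**Figure D4:**
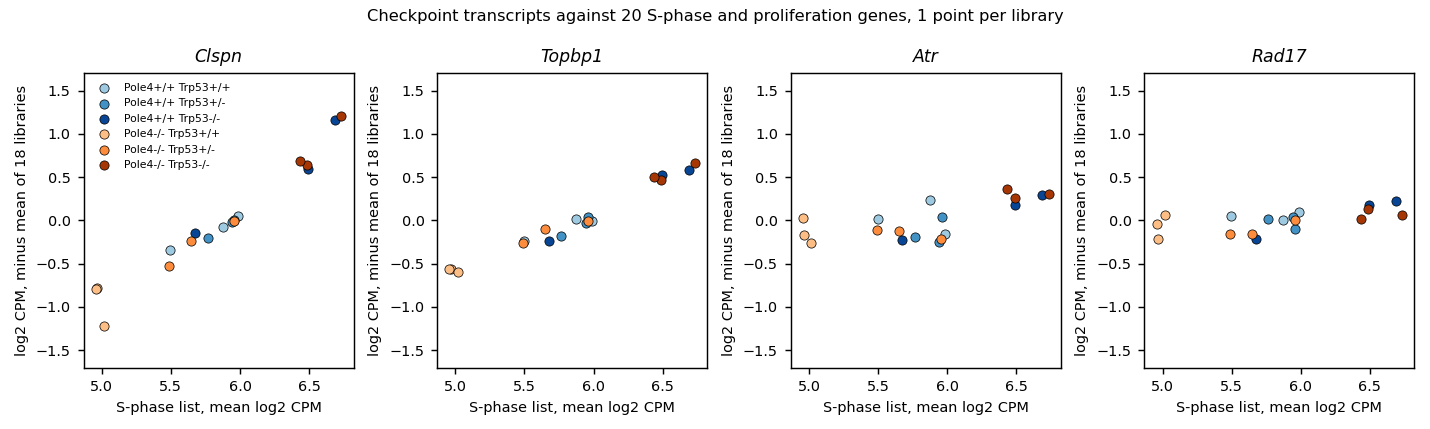
Log2 CPM of *Clspn*, *Topbp1*, *Atr* and *Rad17* in each library, less the mean of the 18 libraries, against the mean log2 CPM of 20 S-phase and proliferation genes in the same library, colored by genotype. *Clspn* and *Topbp1* followed the list from 4.96 to 6.73 on the x axis (Pearson correlations of 0.97 and 0.99). *Atr* and *Rad17* had correlations of 0.68 and 0.61 and spread less, with a highest CPM of 1.54 and 1.36 times the lowest.

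The genes whose pattern over the 18 libraries was most like that of a member, by the Pearson correlation of log2 CPM, were *Cep55* (0.99), *E2f7* (0.985) and *Mre11a* (0.985) for *Clspn*, and *Haus6*, *Scaf11* and *E2f7* (each 0.99) for *Topbp1*. *Cenpa* (0.99), *Ncapd2* (0.98) and *Ccnb2* (0.98) came closest to *Timeless*, and *Hells*, *Nup54* and *Depdc1a* (each 0.98) to *Chek1*. *Exosc2* (0.99), *Cnot9* (0.98) and *Rbbp4* (0.98) came closest to *Tipin*, *Qk* (0.965), *Kpna3* (0.96) and *Faap24* (0.95) to *Hus1*, and *Mcrs1* (0.95), *Strn4* (0.94) and *Dhodh* (0.94) to *Rad9a*. The nearest genes to *Atr* (*Lnpk*, *Grpel2* and *Atad1*), *Atrip* (*Maip1*, *Rpusd2* and *Nedd4l*) and *Rad17* (*Zfp334*, *Kit* and *Thg1l*) reached between 0.835 and 0.894.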

How the data were processed

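RNA-seq libraries of primary MEFs, 3 for each of 6 genotypes, were prepared by the authors with a kit that keeps no strand (Ovation) and sequenced in pairs. The authors aligned reads with STAR (2.5.2) to GRCm38 and deposited expected counts per gene from RSEM (1.3.0), of which 6.14% are not whole (no tolerance). The authors' DESeq2 results were not used.

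Groups were taken from the labels. Symbols, coordinates and lengths came from GENCODE's annotation of GRCm38, and promoters from RefSeq. Expected counts were rounded and 15710 genes passed edgeR's filterByExpr. In R 4.3.3, edgeR 4.0.16 (TMM, robust quasi-likelihood, 1 mean per genotype over 18 libraries) gave log2 fold changes, SEs (the size divided by the root of F) and p-values, Benjamini-Hochberg adjusted over all 15710 genes and called under 0.05. Log2 CPM used a prior count of 2. limma 3.58.1 and DESeq2 1.42.0 were alternatives. The fit was also run on simulated counts. These were drawn independently for each library, with no outlier library and no difference in sex, ribosomal RNA or replicate number, so they do not bear on those. All 10 members, and from each gene list the called genes with the 3 highest and 3 lowest changes in *Trp53*-/- against *Trp53*+/+ *Pole4*-/- cells, are named, as are the 3 genes most like each member. *Rad1*, *Atm* and *Chek2* were named for their place in the pathway, after their values were seen. The members and lists were chosen with earlier results of these data known.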

Additional observations from a re-analysis of the deposited data

How the results depend on the processing

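All 10 members kept their sign in *Trp53*-/- against *Trp53*+/+ *Pole4*-/- libraries and in *Pole4*-/- against *Pole4*+/+ *Trp53*+/+ libraries under each alternative run. In the first of these, 6 members were called with scaling by library totals (23.7% of all genes), 7 at an adjusted p under 0.01 (27.8%), and 7 to 9 when 1 library was left out (31.5% to 37.3%). Shares in parentheses are those of all genes called in the same fit. For *Trp53*-/- against *Trp53*+/+ in *Pole4*+/+ cells, 0 members were called with only the genotypes compared (0.616%), 6 with limma voom (18.9%), and 1 to 6 without 1 library (2.01% to 16.9%). For *Trp53*+/- against *Trp53*+/+ in *Pole4*-/- cells, 0 were called at an adjusted p under 0.01 (0.286%), 2 with DESeq2 (13.2%), with no low-count filter (3.03%) and with library totals without rRNA genes (9.41%), 5 with only the genotypes compared (18.2%) and with limma voom (24.6%), 6 with library totals (13.8%), and 0 to 1 without 1 library (0.105% to 3.45%). For *Trp53*-/- against *Trp53*+/- in *Pole4*-/- cells, 2 were called at an adjusted p under 0.01 (4.23%), 0 with library totals (7.97%), and 2 to 5 without 1 library (4.03% to 11.1%), and in *Pole4*+/+ cells 1 with DESeq2 (1.16%), 5 with limma voom (7.29%), and 0 to 6 without 1 library (0.347% to 9.41%). For *Pole4* loss in *Trp53*+/+ cells, 0 were called at an adjusted p under 0.01 (0.0764%) and with *Xist* as a covariate (0.0191%), 2 with a mean of at least 50 counts (6.64%), with the replicate block (5.7%) and with rRNA genes left out (4.99%), 3 with no low-count filter (2.78%), 6 with DESeq2 (11.8%), with only the genotypes compared (24.1%) and with library totals without rRNA genes (10.1%), 7 with limma voom (33.5%) and with library totals (14.3%), and 0 to 2 without 1 library (0.0493% to 4.93%). For the interaction, 1 was called with no low-count filter (1.14%), 3 with library totals without rRNA genes (3.93%), 4 with limma voom (7.59%), 5 with DESeq2 (12.4%), and 0 to 5 without 1 library (0.0% to 20.1%).

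The count of all genes called ran, over the alternatives and the fits without 1 library, from 3722 to 8169 (6699 as reported) for *Trp53*-/- against *Trp53*+/+ in *Pole4*-/- and from 90 to 2977 (723) in *Pole4*+/+ cells, from 17 to 3865 (805) and from 17 to 1120 (142) for *Trp53*+/- against *Trp53*+/+, and from 654 to 4068 (1963) and from 18 to 1501 (91) for *Trp53*-/- against *Trp53*+/-. For *Pole4* loss it ran from 3 to 5259 (626) in *Trp53*+/+, 0 to 248 (1) in *Trp53*+/- and 0 to 27 (1) in *Trp53*-/- cells, and for the interaction from 0 to 3242 (52).

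Signs turned only for members that were not called. *Atr* in *Trp53*+/- against *Trp53*+/+ *Pole4*-/- libraries was at 0.274 with library totals, 0.044 with no low-count filter, 0.0 with *Xist* as a covariate, and -0.077 to 0.066 without 1 library. *Rad17* there was at 0.277 with library totals, 0.034 with no low-count filter and -0.085 to 0.031 without 1 library. In *Trp53*-/- against *Trp53*+/- *Pole4*-/- libraries, *Rad9a* was at -0.12 and *Rad17* at -0.16 with library totals. Without 1 library, *Atr* ran from -0.067 to 0.169 and *Rad17* from -0.071 to 0.12 in *Trp53*-/- against *Trp53*+/+ *Pole4*+/+ libraries, and the interaction for *Rad17* from -0.001 to 0.19. In *Trp53*+/- against *Trp53*+/+ *Pole4*+/+ libraries, with *Xist* as a covariate *Tipin* was at 0.094, *Rad9a* at -0.039 and *Hus1* at -0.139, *Topbp1* was at -0.004 with limma voom, and without 1 library *Chek1* ran from -0.0 to 0.133, *Clspn* from -0.061 to 0.127, *Tipin* from -0.198 to 0.054, *Topbp1* from -0.055 to 0.066 and *Rad9a* from -0.024 to 0.118. In *Trp53*-/- against *Trp53*+/- *Pole4*+/+ libraries *Atrip* was at 0.03 with limma voom and ran from -0.203 to 0.045, and *Hus1* from -0.038 to 0.352, without 1 library. For *Pole4* loss in *Trp53*+/- cells, *Atr* was at 0.022 and *Hus1* at 0.003 with *Xist* as a covariate, and without 1 library *Atr* ran from -0.077 to 0.071, *Tipin* from -0.2 to 0.102 and *Topbp1* from -0.123 to 0.01. For *Pole4* loss in *Trp53*-/- cells, library totals gave -0.197 for *Atr*, -0.226 for *Atrip*, -0.126 for *Chek1*, -0.158 for *Clspn*, -0.381 for *Timeless*, -0.118 for *Tipin*, -0.182 for *Topbp1* and -0.159 for *Hus1*. There *Timeless* was also at -0.0 with upper-quartile scaling, -0.055 with limma voom and -0.021 with library totals without rRNA genes, *Hus1* at -0.0 with limma voom, and *Rad17* at 0.007 with DESeq2 and 0.004 with the replicate block. Without 1 library, *Clspn* ran from -0.028 to 0.588, *Timeless* from -0.073 to 0.113, *Hus1* from -0.003 to 0.407 and *Rad17* from -0.129 to 0.062. Scaling by library totals moved the median of all genes by -0.42 to 0.29 between comparisons, so its counts include that shift. The other alternatives moved it by at most 0.09. The setting of library totals without rRNA genes was chosen after seeing the data. The causes were not tested.

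Replicate numbers were not treated as pairs. Same-numbered libraries of different genotypes had correlations of their deviations from -0.26 to 0.59, with a median of 0.098 and 22 of 45 pairs above 0.1. Pairs with different numbers had a median of -0.06, with 16 of 90 above 0.1. In all, 11 of 18 libraries correlated best with their own number. Same-numbered libraries were thus somewhat more alike by the median, and the labels do not say what the numbers share. The replicate block moved the count of members called by over 1.5 times only for *Pole4* loss in *Trp53*+/+ cells, from 1 to 2. With 3 libraries a genotype, the exact test on single values could not go below 0.1.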

Other observations

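Within the RAD9A-HUS1-RAD1 ring and the kinase complex, the ratio of partners was compared within libraries. The log2 ratio of *Rad9a* to *Hus1* CPM in *Pole4*-/- cells was lower in *Trp53*-/- than in *Trp53*+/- libraries by 0.30 with no overlap (exact permutation p = 0.1, two-sided, the smallest possible, adjusted p = 0.3 over 63 comparisons of 7 ratios). Between *Trp53*-/- and *Trp53*+/+ *Pole4*-/- libraries it was lower by 0.36, but the groups overlapped, and by 0.21 without the first *Trp53*+/+ library. In *Trp53*-/- cells it was lower in *Pole4*-/- than in *Pole4*+/+ libraries by 0.43, with no overlap (exact permutation p = 0.1). The log2 ratio of *Atrip* to *Atr* in *Pole4*+/+ cells was higher in *Trp53*+/- than in *Trp53*+/+ libraries by 0.42 with no overlap (exact permutation p = 0.1). It was lower in *Trp53*-/- than in *Trp53*+/- libraries by 0.33, also with no overlap (exact permutation p = 0.1), or by 0.198 without the third *Trp53*+/- library, and *Trp53*-/- and *Trp53*+/+ libraries overlapped, with a difference of 0.09. All 3 *Pole4*+/+ *Trp53*+/- libraries were male and no other *Pole4*+/+ library was, so allele and sex cannot be told apart in these differences. The division of reads between *Atrip* and *Trex1* is uncertain as well.

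With the genotype means removed, the Pearson correlation over the 18 libraries was positive in all 45 pairs of members, with a median of 0.64, and below 0.2 in 1. It was 0.90 for *Tipin* with *Topbp1*, 0.89 for *Clspn* with *Topbp1*, 0.86 for *Hus1* with *Rad17* and 0.05 for *Timeless* with *Rad17*. Without the low first *Pole4*+/+ *Trp53*-/- library it was positive in 35 of the 45 pairs and below 0.2 in 21, with a median of 0.27, and the same 4 pairs were at 0.847, 0.79, 0.67 and -0.42. The libraries share the scaling, and no test was made.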
